A study of Mus musculus with 18 samples.

Results

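The genes described here are 35 transcripts of the exocrine pancreas: 25 genes of secreted digestive enzymes, 5 genes of zymogen granule proteins and a trypsin inhibitor, and 5 genes of transcription factors that act in acinar cells. They were taken by symbol from a list of acinar genes. All 35 were found among the 54186 gene symbols of the table, and all 35 were among the 20244 genes with enough counts to be tested. The libraries were made from pancreatic islets, and isolated islets can carry acinar cells with them. Some of the genes, such as Nr5a2, are also transcribed in other cells of the islet.

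Acinar cells fill most of the pancreas and surround the islets. They make digestive enzymes, many of them as inactive zymogens such as trypsinogens, store them in zymogen granules and release them into ducts. Trypsinogen becomes trypsin by cleavage and trypsin then activates the other zymogens, which the trypsin inhibitor SPINK1 holds back inside the gland. In mouse, transcription of the enzyme genes rests on the PTF1 complex, in which PTF1A and its E-protein partner bind an E-box (CANNTG) and RBPJL binds a neighbouring TGGGAA core. BHLHA15 (MIST1) governs the secretory architecture of acinar cells, and NR5A2 and GATA4 act in acinar maintenance and pancreas development.

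The study compared the RNA of whole islets from FVB mice aged 6 weeks. The WT group carried no IAPP transgene. The hIAPP group expressed human IAPP and the rIAPP group rodent IAPP, each in beta cells from an insulin II promoter. Islet amyloid polypeptide is a hormone that beta cells secrete with insulin, and the rodent transgene gives a control for overexpression. Each genotype had 6 libraries, each from the islets of 1 mouse, made from total RNA after depletion of ribosomal RNA. The transgenes act in beta cells, whereas the digestive enzymes are made in the acinar cells that surround islets. In bulk RNA, fewer or more acinar cells and less or more acinar RNA per cell cannot be told apart.

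Library totals, in units of 1e6 counts, ran from 144.3 to 166.2 in WT, from 109.6 to 141.5 in hIAPP and from 127.6 to 157.5 in rIAPP. The 5 islet hormones Ins1, Ins2, Gcg, Sst and Ppy together held 60961 to 144130 CPM (counts per 1e6 scaled counts) in every library. The defining markers of the labelled tissue were thus abundant.

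Promoter sequences from RefSeq (GRCm38.p6) were available for 28 of the 35 genes. Their upstream windows were searched for the 2 motifs of the PTF1 complex, for TATAAA and for the NR5A core. In the 250 bases before the start, an E-box (CANNTG) was present in 23 of the 28 genes and in 66.0% of 27025 windows of all genes. The core TGGGAA, read on both strands, was present in 17 of the 28 and in 21.5% of all windows. The 2 motifs lay within 25 bases of each other in 6 of the 28 (Cpa1, Cel, Pnliprp1, Prss1, Ctrb1 and Rbpjl) and in 5.05% of all windows. TATAAA was found in 10 of the 28 and in 13.0% of all windows, and the NR5A core CAAGGTCA in 2 of the 28 and in 1.31%. A match is a description of letters and not a measured binding site. The 160 bases before the start are shown for 4 enzymes and the PTF1 member Rbpjl, which have both motifs close together, and for Bhlha15 and Nr5a2, whose CPM spanned only 2.21-fold and 2.74-fold over the 18 libraries. Capitals mark each E-box and each TGGGAA core or its reverse complement TTCCCA.
Cpa1, chr6:30639058-30639217, plus strand: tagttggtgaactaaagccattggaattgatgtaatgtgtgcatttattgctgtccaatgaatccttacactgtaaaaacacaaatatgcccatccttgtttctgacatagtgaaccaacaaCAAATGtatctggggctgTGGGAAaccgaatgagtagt
Cel, chr2:28563404-28563563, minus strand: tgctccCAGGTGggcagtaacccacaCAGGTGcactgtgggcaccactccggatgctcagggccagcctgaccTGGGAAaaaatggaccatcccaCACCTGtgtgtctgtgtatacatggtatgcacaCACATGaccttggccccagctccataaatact
Pnliprp1, chr19:58728727-58728886, plus strand: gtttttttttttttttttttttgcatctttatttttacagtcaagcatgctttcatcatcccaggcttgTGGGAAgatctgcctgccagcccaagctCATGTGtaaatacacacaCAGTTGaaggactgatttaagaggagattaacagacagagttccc
Prss1, chr6:41458770-41458929, plus strand: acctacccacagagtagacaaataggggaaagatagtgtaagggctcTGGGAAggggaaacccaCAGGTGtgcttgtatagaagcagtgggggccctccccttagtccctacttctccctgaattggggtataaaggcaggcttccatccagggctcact
Rbpjl, chr2:164403034-164403193, plus strand: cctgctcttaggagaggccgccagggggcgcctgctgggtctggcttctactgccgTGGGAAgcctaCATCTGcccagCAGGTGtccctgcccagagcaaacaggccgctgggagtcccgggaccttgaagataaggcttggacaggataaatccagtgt
Bhlha15, chr5:144190126-144190285, plus strand: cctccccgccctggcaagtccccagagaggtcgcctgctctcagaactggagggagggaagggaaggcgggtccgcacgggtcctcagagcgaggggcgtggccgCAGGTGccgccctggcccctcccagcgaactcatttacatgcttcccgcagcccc
Nr5a2, chr1:136960449-136960608, minus strand: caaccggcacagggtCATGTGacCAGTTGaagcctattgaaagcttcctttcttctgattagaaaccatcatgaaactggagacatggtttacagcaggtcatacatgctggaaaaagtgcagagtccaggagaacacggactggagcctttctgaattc
The first 5 windows hold both motifs, while those of Bhlha15 and Nr5a2 hold an E-box and no TGGGAA core. Cpb1, Amy2a5, Amy2b, Cela1, Cela3b, Pnliprp2, Cuzd1 and Try4 also lack it in the 250 bases, and each rose with both transgenes. Of all tested genes, 8.31% rose with hIAPP and 14.1% with rIAPP. Prss3, with 0 to 17.1 counts per WT library, lacks the core too and did not pass with either transgene. Cela3a, Amy1 and Rbpjl hold the core and did not pass with hIAPP, but rose with rIAPP. Whether the core goes with a change in level was not tested.

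RNA of the 35 acinar genes ran from 0.114% to 2.39% of all counts over the libraries and varied widely between mice of 1 genotype. The 35 genes together took 0.247% ± 0.131 of all counts in WT (SD, n = 6), 1.06% ± 0.766 in hIAPP (n = 6) and 1.30% ± 0.685 in rIAPP (n = 6). WT libraries 1 to 6 held 0.146%, 0.230%, 0.228%, 0.485%, 0.114% and 0.281%. The hIAPP libraries held 0.307%, 0.549%, 0.676%, 0.948%, 1.47% and 2.39%, and the rIAPP libraries 1.84%, 2.33%, 0.645%, 1.12%, 0.571% and 1.30%. Every rIAPP library lay above every WT library. In hIAPP, library 1 lay below the highest WT library (WT 4) and the other 5 lay above it.

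**Figure D1:**
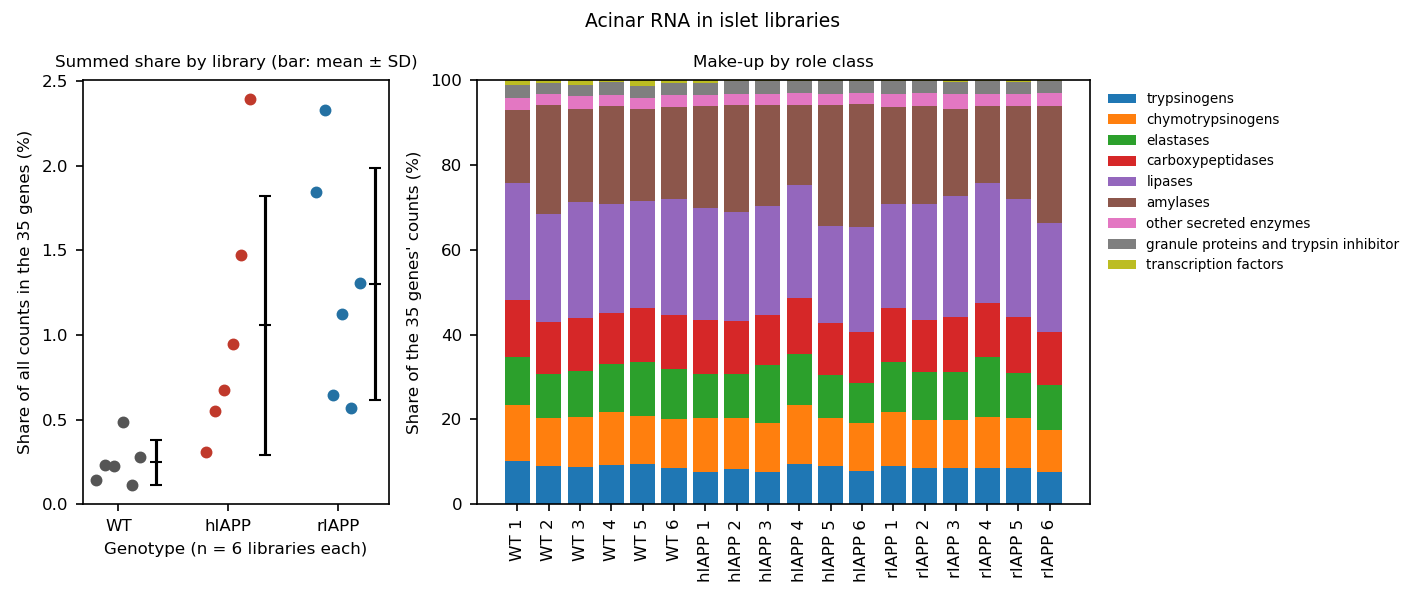
Left, share of all counts taken by the 35 genes (%), 1 point per library, with the mean ± SD (n = 6) beside each genotype. Right, make-up of those counts by role class (%) in each library. The share runs from 0.114% in WT 5 to 2.39% in hIAPP 6, while the lipases stay between 22.8% and 28.4% of the total and the amylases between 17.1% and 29.2%.

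The make-up of this RNA changed far less than its amount. Of the counts of the 35 genes, lipases took 22.8% to 28.4% over the 18 libraries, amylases 17.1% to 29.2%, carboxypeptidases 11.8% to 13.5% and chymotrypsinogens 9.93% to 13.9%. Elastases took 9.42% to 14.3%, trypsinogens 7.53% to 10.2%, granule proteins with the inhibitor 2.65% to 3.08%, and Rnase1 with Klk1 2.49% to 3.60%. The transcription factors took 0.134% to 1.41%. Per kilobase of exon, Ctrb1 had the highest mean level of the 35 in each genotype, at 288 ± 159 CPM per kb in WT, 1101 ± 737 in hIAPP and 1325 ± 764 in rIAPP (SD, n = 6). Ptf1a had the lowest mean in WT, at 0.0429 ± 0.0238 CPM per kb.

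The same few mice carried most of the transcripts at their highest. WT 4 held the highest WT level for 31 of the 35 genes and WT 5 the lowest for 30. Among the hIAPP libraries, 5 and 6 were the highest pair for 27 genes and library 1 was the lowest for 30. Among the rIAPP libraries, 1 and 2 were the highest pair for 33 genes and library 5 was the lowest for 29. A gene's level spanned 4.02-fold between WT libraries at the median of the 35 genes, 6.69-fold between hIAPP libraries and 4.36-fold between rIAPP libraries.

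**Figure D2:**
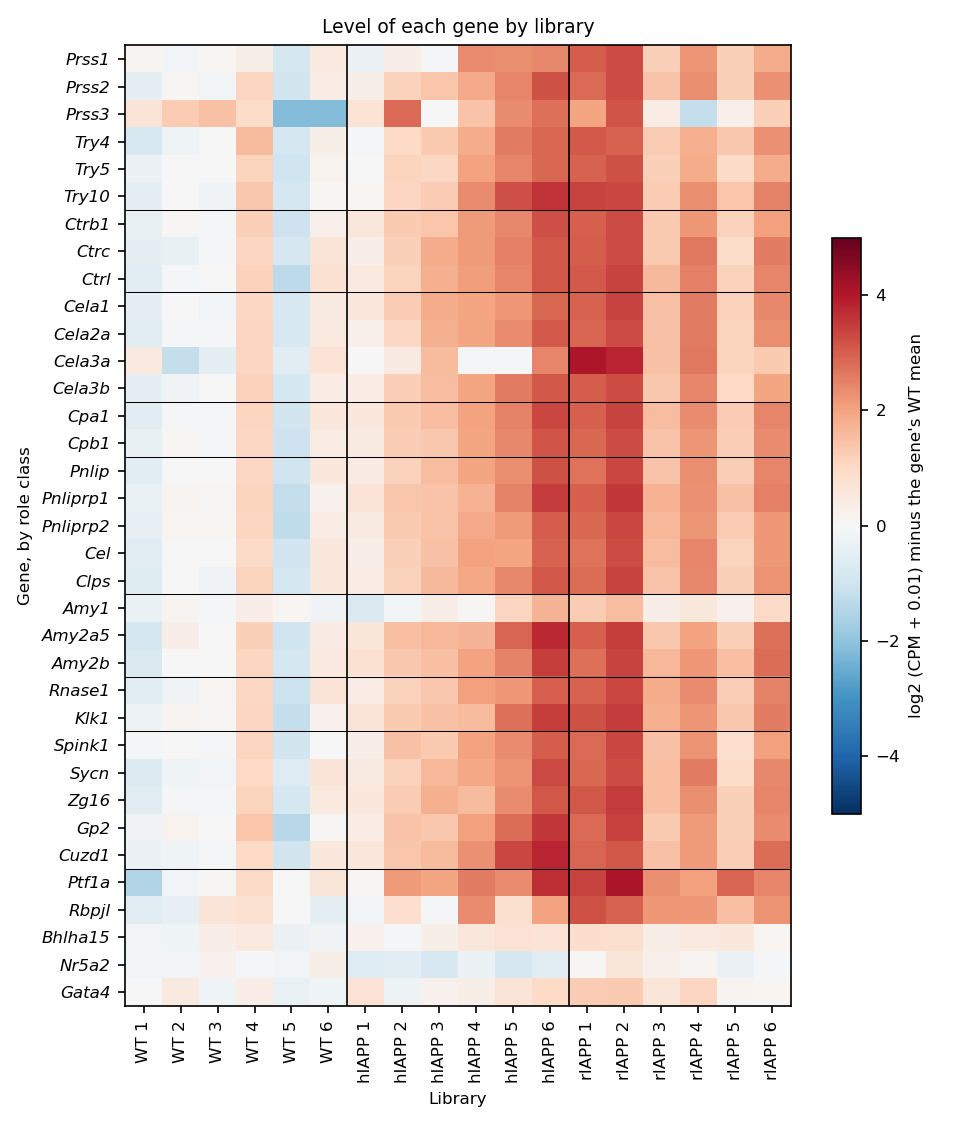
Level of each of the 35 genes (rows, by role class) in each of the 18 libraries (columns), as log2 (CPM + 0.01) minus the gene's WT mean. Most enzyme rows share 1 pattern over the libraries, highest in WT 4, in hIAPP 5 and 6 and in rIAPP 1 and 2, whereas the rows of Bhlha15, Nr5a2 and Gata4 span only 2.21-fold, 2.74-fold and 3.22-fold in CPM.

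Both transgenic groups had higher levels of most acinar genes than WT. With hIAPP, 28 of the 35 genes rose against WT, where 8.31% of all tested genes rose. Nr5a2 fell (7.53% of all tested genes fell), and 6 did not pass the test (Prss3, Cela3a, Amy1, Rbpjl, Bhlha15 and Gata4). The median log2 fold change of the 35 was 1.87, against -0.01 over all tested genes. With rIAPP, 33 of the 35 rose against WT, where 14.1% of all tested genes rose, and Prss3 and Nr5a2 did not pass. The median was 2.31, against -0.01 over all tested genes. No member fell with rIAPP, at an adjusted p under 0.05, at an unadjusted p under 0.05 (0 genes), with DESeq2 or with limma-voom (0 each), where 12.6% of all tested genes fell. The 2 comparisons share the WT libraries. Tests were edgeR quasi-likelihood tests with adjustment over all tested genes, and a change was called at an adjusted p under 0.05. The p-values measure the spread between mice.

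The groups overlapped more with hIAPP than with rIAPP. All 6 rIAPP libraries lay above all 6 WT libraries for 20 of the 35 genes, where 8.13% of all tested genes did so. No gene of the 35 had all 6 rIAPP libraries below all 6 WT libraries (6.75% of all tested genes). No gene of the 35 had all 6 hIAPP libraries above all 6 WT libraries (3.73%), and Nr5a2 had all 6 hIAPP libraries below all 6 WT libraries (2.89%). Most calls with hIAPP needed libraries 5 and 6: without both, 4 of the 35 genes rose and Nr5a2 fell (8.13% of all genes then tested were called), while the median log2 fold change of the 35 was still 1.22. Without rIAPP 1 and 2, a setting chosen after the values were seen, 30 of the 35 were called against WT (21.2% of all genes then tested), with a median of 1.79.

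Between the 2 transgenic groups 3 of the 35 genes differed, all lower in hIAPP, where 14.1% of all tested genes were lower. They were Cela3a, Rbpjl and Nr5a2. No gene of the 35 was higher in hIAPP than in rIAPP by edgeR, where 13.5% of all tested genes were higher. The count higher at an unadjusted p under 0.05 was 0, as were those with DESeq2 and limma-voom. The median log2 fold change of the 35 was -0.39, against 0 over all tested genes. The other 32 genes did not pass, and for the enzymes among them the 95% intervals were wide: for Prss2 the difference was -0.37 with a 95% interval from -1.26 to 0.51, and for Cpa1 -0.36 with a 95% interval from -1.25 to 0.53. Without hIAPP 5 and 6 the count of genes lower in hIAPP was 7 (24.9% of all genes then tested were called). Without hIAPP 1, 2 or 5 or without rIAPP 1 or 2, each left out alone, it was 1. Without rIAPP 1 and 2 together it was also 1 (24.4% of all genes then tested).

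**Figure D3:**
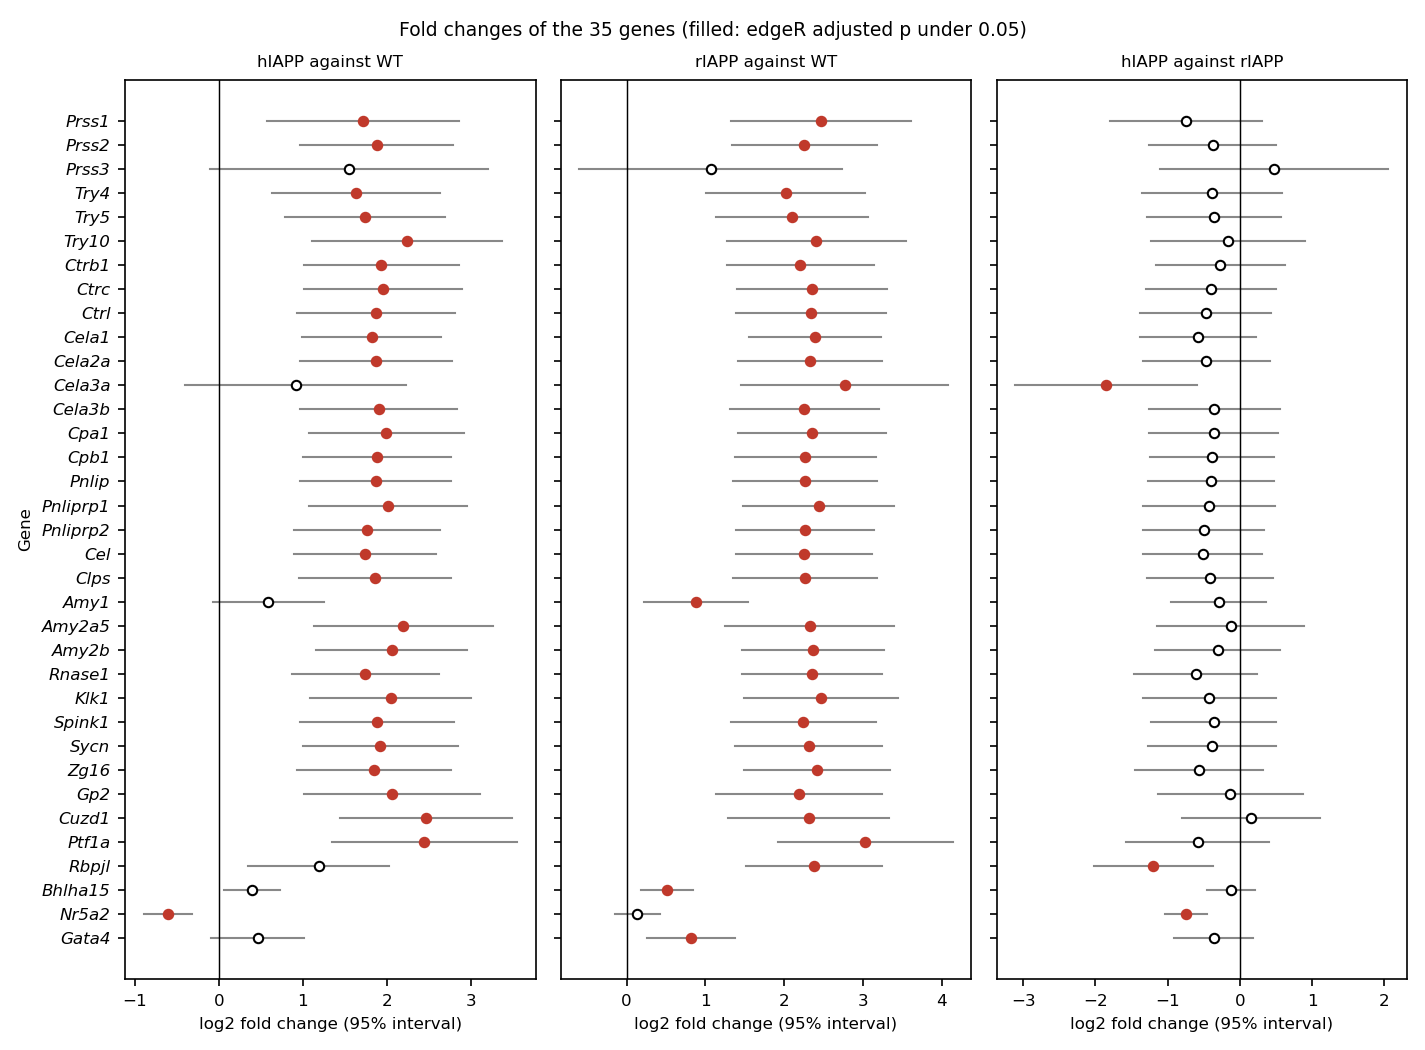
Log2 fold change of each of the 35 genes (rows) in the 3 comparisons, with 95% intervals; filled points passed at an edgeR adjusted p under 0.05. Against WT most enzymes sit near the medians of 1.87 (hIAPP) and 2.31 (rIAPP), and Nr5a2 is lower in hIAPP in both comparisons it enters.

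Levels below are given as the lowest, median and highest library of each genotype (n = 6), in CPM, and changes as the log2 fold change ± SE. Of the 6 trypsinogens, whose genes lie together on chromosome 6, 5 rose with hIAPP and 5 with rIAPP. Prss2, an abundant mouse trypsinogen, was at 66.2, 122 and 263 CPM in WT, 152, 399.9 and 1126 in hIAPP and 283, 619 and 1193 in rIAPP. It rose with hIAPP by 1.88 ± 0.44 (adjusted p = 0.00601) and with rIAPP by 2.25 ± 0.44 (adjusted p = 5.80e-04). The hIAPP range overlapped the WT range, and the rIAPP range did not. Try5 was at 42.1, 82.4 and 179 CPM in WT, 85.1, 255 and 609.9 in hIAPP and 162, 303 and 746 in rIAPP, and rose by 1.74 ± 0.45 (adjusted p = 0.0129) with hIAPP and by 2.10 ± 0.46 (adjusted p = 0.00165) with rIAPP. Try10 was at 1.88, 3.28 and 8.87 CPM in WT, 3.67, 13.0 and 42.1 in hIAPP and 8.33, 18.5 and 36.3 in rIAPP. It rose by 2.24 ± 0.54 (adjusted p = 0.00768) and by 2.41 ± 0.54 (adjusted p = 0.00206). For both genes the ranges of the 3 genotypes overlapped. Prss3 alone of the 6 did not pass in either comparison: it was at 0, 0.0680 and 0.113 CPM in WT, 0.0360, 0.166 and 0.313 in hIAPP and 0.00959, 0.0705 and 0.392 in rIAPP, and differed by 1.55 ± 0.79 (adjusted p = 0.21) and 1.07 ± 0.80 (adjusted p = 0.372). It had 0 to 17.1 counts per WT library, so the depth behind it is small. Prss1 rose by 1.72 ± 0.55 (adjusted p = 0.038) and 2.46 ± 0.55 (adjusted p = 0.00183), from 5.2 to 13 counts per WT library. Its call with hIAPP was lost with limma-voom (adjusted p = 0.425) and without any 1 WT library or hIAPP 4, 5 or 6. Try4 rose by 1.63 ± 0.48 (adjusted p = 0.0253) and 2.02 ± 0.48 (adjusted p = 0.00348), and its call with hIAPP was lost without WT 1, 2 or 3 or hIAPP 5 or 6. Trypsinogen transcripts are near copies of each other: 66.1% of the 50-base windows of Prss3, 65.6% of those of Try4, 54.9% of Prss1, 53.9% of Try5 and 40.8% of Try10 occur in another gene, against 7.83% of Prss2. How the counting shared reads between such copies is not given in the sources used here, so the split among those 5 is uncertain.

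All 3 chymotrypsinogens rose with each transgene. Ctrb1, chymotrypsinogen B, was at 110.0, 224 and 515 CPM in WT, 337, 792 and 2131 in hIAPP and 508, 982 and 2170.0 in rIAPP. It rose by 1.94 ± 0.44 (adjusted p = 0.00548) with hIAPP and by 2.20 ± 0.45 (adjusted p = 8.04e-04) with rIAPP. The lowest hIAPP library lay inside the WT range. The lowest rIAPP library lay just under WT 4, so the ranges overlapped in both comparisons. Ctrl, a chymotrypsin-like protease, was at 17.4, 41.7 and 95.7 CPM in WT, 59.7, 165 and 371 in hIAPP and 95.8, 239 and 444 in rIAPP, and rose by 1.87 ± 0.45 (adjusted p = 0.00772) and 2.34 ± 0.46 (adjusted p = 5.69e-04). Ctrc, a chymotrypsin that also cleaves trypsinogen, was at 6.12, 9.44 and 22.8 CPM in WT, 13.6, 43.7 and 94.7 in hIAPP and 20.6, 66.2 and 104 in rIAPP, with rises of 1.95 ± 0.45 (adjusted p = 0.00556) and 2.35 ± 0.45 (adjusted p = 4.95e-04). Ctrb1 and Ctrl share no 50-base window with another gene, whereas the annotated gene of Ctrc overlaps that of Cela2a on chromosome 4.

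Of the 4 elastases, 3 rose with hIAPP and all 4 with rIAPP. Cela2a was at 85.5, 143 and 314 CPM in WT, 178, 553 and 1271 in hIAPP and 324, 837 and 1454 in rIAPP. Its rises were 1.87 ± 0.43 (adjusted p = 0.00597) with hIAPP and 2.33 ± 0.44 (adjusted p = 4.00e-04) with rIAPP. Cela1 was at 42.6, 70.2 and 154 CPM in WT, 109, 284 and 541 in hIAPP and 167, 428 and 776 in rIAPP, and rose by 1.82 ± 0.40 (adjusted p = 0.00383) and 2.39 ± 0.40 (adjusted p = 1.29e-04). Cela3b was at 22.6, 38.5 and 91.7 CPM in WT, 52.5, 140.2 and 354 in hIAPP and 82.0, 192 and 399 in rIAPP, and rose by 1.90 ± 0.45 (adjusted p = 0.00671) and 2.25 ± 0.45 (adjusted p = 7.52e-04). These 3 genes moved alike, and 25.6% of the 50-base windows of Cela2a occur in the gene model of Ctrc. Cela3a differed from them: it was at 0.0299, 0.0859 and 0.182 CPM in WT, 0.0753, 0.0967 and 0.483 in hIAPP and 0.188, 0.395 and 1.47 in rIAPP, did not pass with hIAPP at 0.91 ± 0.63 (adjusted p = 0.376), rose with rIAPP by 2.77 ± 0.63 (adjusted p = 0.00224), and was lower in hIAPP than in rIAPP by a log2 of -1.85 ± 0.60 (adjusted p = 0.0258). The last call was lost without hIAPP 1, 2, 4 or 5 or rIAPP 1 or 2. The gene had 4.20 to 27.8 counts per WT library, and 34.2% of its 50-base windows occur in Cela3b, so its reads may be shared with that larger gene.

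Both carboxypeptidases, which trim amino acids from the ends of peptides, rose with each transgene. Cpb1 was at 81.4, 167 and 339 CPM in WT, 225, 533 and 1469 in hIAPP and 390.5, 811 and 1606 in rIAPP, with rises of 1.88 ± 0.42 (adjusted p = 0.00493) and 2.27 ± 0.43 (adjusted p = 4.15e-04). Cpa1 was at 67.1, 122 and 269.8 CPM in WT, 182, 444 and 1298 in hIAPP and 306, 674 and 1329 in rIAPP, with rises of 2.00 ± 0.44 (adjusted p = 0.00438) and 2.35 ± 0.45 (adjusted p = 4.35e-04). For both genes the hIAPP range began inside the WT range and the rIAPP range lay above it.

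All 5 lipase genes rose with each transgene. Pnlip, pancreatic lipase, which splits dietary triglycerides, was at 129.9, 259 and 540.1 CPM in WT, 351, 887 and 2348 in hIAPP and 605, 1372 and 2631 in rIAPP, and rose by 1.87 ± 0.43 (adjusted p = 0.00582) and 2.27 ± 0.44 (adjusted p = 4.92e-04). Pnliprp1, a lipase-related protein, was at 67.2, 166 and 337 CPM in WT, 242, 469 and 1755 in hIAPP and 431, 825 and 1805 in rIAPP, and rose by 2.01 ± 0.45 (adjusted p = 0.00481) and 2.44 ± 0.46 (adjusted p = 3.91e-04). Cel, the lipase that bile salts activate, was at 75.7, 149 and 290.3 CPM in WT, 188, 494 and 1142 in hIAPP and 325, 743 and 1439 in rIAPP, and rose by 1.74 ± 0.41 (adjusted p = 0.00627) and 2.25 ± 0.41 (adjusted p = 2.98e-04). Each of the 3 had all rIAPP libraries above all WT libraries. Clps, the colipase that anchors pancreatic lipase to fat droplets, and Pnliprp2 did the same: Clps rose by 1.85 ± 0.43 (adjusted p = 0.0064) and 2.27 ± 0.44 (adjusted p = 5.29e-04), and Pnliprp2 by 1.76 ± 0.41 (adjusted p = 0.00657) and 2.26 ± 0.42 (adjusted p = 3.50e-04).

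Of the 3 amylase genes, which lie on chromosome 3 and digest starch, 2 rose with hIAPP and 3 with rIAPP. Amy2a5 was at 239.8, 540.0 and 1106 CPM in WT, 731, 1546 and 6432 in hIAPP and 1103, 2599 and 5248 in rIAPP. It rose by 2.20 ± 0.51 (adjusted p = 0.00607) and 2.32 ± 0.51 (adjusted p = 0.00172), with overlap of the ranges in both. It was the member with most counts, from 16.1% of the 35 genes' counts in WT 1 to 28.0% in hIAPP 6, and 57.2% of its 50-base windows occur in other genes, mostly Amy2a2. Amy2b, which GENCODE M21 annotates as a pseudogene, was at 13.4, 24.8 and 51.0 CPM in WT, 41.0, 85.1 and 268 in hIAPP and 68.8, 136 and 254 in rIAPP, and rose by 2.06 ± 0.43 (adjusted p = 0.00278) and 2.37 ± 0.43 (adjusted p = 3.03e-04). Amy1, the amylase known from salivary gland and liver, was at 1.45, 1.84 and 2.26 CPM in WT, 1.09, 2.09 and 5.82 in hIAPP and 2.09, 3.07 and 5.32 in rIAPP. It did not pass with hIAPP (0.59 ± 0.32, adjusted p = 0.237) and rose with rIAPP by 0.88 ± 0.32 (adjusted p = 0.0456). That call was lost in 12 of 32 alternative settings, among them a robust fit and leaving out WT 1, 2, 3, 5 or 6, hIAPP 3 or rIAPP 1, 2 or 6, and its sign turned with the core covariate described below. Its 3 ranges overlapped.

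Rnase1, pancreatic ribonuclease, was at 17.6, 36.3 and 76.8 CPM in WT, 47.7, 124 and 295 in hIAPP and 87.7, 199 and 371 in rIAPP, and rose by 1.75 ± 0.42 (adjusted p = 0.00723) and 2.36 ± 0.42 (adjusted p = 2.54e-04). Klk1, the tissue kallikrein of exocrine glands, was at 11.8, 29.0 and 56.4 CPM in WT, 41.7, 77.7 and 294 in hIAPP and 68.6, 142 and 301 in rIAPP, and rose by 2.05 ± 0.46 (adjusted p = 0.00482) and 2.47 ± 0.47 (adjusted p = 4.05e-04). All rIAPP libraries lay above all WT libraries for both, and 28.4% of the 50-base windows of Klk1 occur in other kallikrein genes.

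All 5 granule and inhibitor genes rose with each transgene. Zg16, a lectin of the zymogen granule, was at 17.0, 29.1 and 67.1 CPM in WT, 44.5, 99.0 and 269 in hIAPP and 70.1, 164 and 352 in rIAPP, and rose by 1.85 ± 0.44 (adjusted p = 0.00682) and 2.41 ± 0.44 (adjusted p = 3.17e-04). Gp2, the main glycoprotein of the granule membrane, was at 7.12, 18.7 and 48.5 CPM in WT, 23.9, 64.3 and 214 in hIAPP and 42.5, 88.8 and 200.3 in rIAPP, and rose by 2.06 ± 0.50 (adjusted p = 0.00834) and 2.19 ± 0.50 (adjusted p = 0.00248). Sycn, syncollin, which sits on the inner granule membrane, was at 7.77, 11.0 and 24.9 CPM in WT, 16.7, 43.3 and 122 in hIAPP and 23.2, 70.8 and 117 in rIAPP, and rose by 1.92 ± 0.44 (adjusted p = 0.00562) and 2.31 ± 0.45 (adjusted p = 5.15e-04). Only for Zg16 of these 3 did the rIAPP range lie clear of WT. Cuzd1, a granule membrane protein, had its highest library in hIAPP, as did Gp2 and Sycn. Cuzd1 was at 1.84, 3.21 and 7.05 CPM in WT, 5.19, 14.0 and 49.9 in hIAPP and 8.17, 20.02 and 30.4 in rIAPP, and rose by 2.47 ± 0.49 (adjusted p = 0.00186) and 2.31 ± 0.49 (adjusted p = 0.00118). Spink1, the trypsin inhibitor, rose by 1.88 ± 0.44 (adjusted p = 0.00606) and 2.24 ± 0.44 (adjusted p = 5.95e-04).

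The 5 transcription factors did not move as 1 group. Ptf1a, the DNA-binding core of the PTF1 complex, was at 0.0134, 0.0577 and 0.118 CPM in WT, 0.0593, 0.306 and 0.833 in hIAPP and 0.265, 0.417 and 1.10 in rIAPP. It rose by 2.45 ± 0.53 (adjusted p = 0.00362) with hIAPP and by 3.03 ± 0.53 (adjusted p = 1.88e-04) with rIAPP. Its WT libraries held 2 to 18 counts each. Rbpjl, its acinar partner, was at 0.703, 0.872 and 1.71 CPM in WT, 0.924, 1.79 and 5.22 in hIAPP and 2.85, 4.70 and 9.34 in rIAPP. It did not pass with hIAPP (1.19 ± 0.40, adjusted p = 0.0507), rose with rIAPP by 2.38 ± 0.41 (adjusted p = 1.69e-04), and was lower in hIAPP than in rIAPP (-1.20 ± 0.39, adjusted p = 0.0284). Both results lay close to the threshold. The first passed in 9 of 32 alternative settings, DESeq2 (adjusted p = 0.0404) and library totals (0.035) among them. The call between the transgenic groups was lost in 7, among them leaving out hIAPP 1, 2, 3 or 5 or rIAPP 1 or 2. Every rIAPP library lay above every WT library for Rbpjl, whereas in hIAPP the levels were 5.22 CPM in library 4 and 4.08 in library 6 but only 0.924, 1.82, 0.959 and 1.76 in libraries 1, 2, 3 and 5.

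Bhlha15 was at 11.6, 12.7 and 19.7 CPM in WT, 13.2, 19.1 and 23.5 in hIAPP and 15.1, 20.1 and 25.6 in rIAPP. It did not pass with hIAPP (0.39 ± 0.16, adjusted p = 0.103) and rose with rIAPP by 0.51 ± 0.16 (adjusted p = 0.0207), a smaller log2 change than that of any enzyme that rose with rIAPP. Gata4 was at 0.255, 0.299 and 0.445 CPM in WT, 0.271, 0.448 and 0.652 in hIAPP and 0.342, 0.593 and 0.822 in rIAPP, with 0.46 ± 0.27 (adjusted p = 0.274) for hIAPP, which did not pass, and 0.82 ± 0.26 (adjusted p = 0.0258) for rIAPP, which did. That call was lost without WT 3, 5 or 6 or rIAPP 1, 2 or 4, and the call of Bhlha15 with rIAPP was lost without WT 2 or rIAPP 1 or 2. Nr5a2, a nuclear receptor that islet cells also make, was at 3.70, 3.80 and 5.12 CPM in WT, 2.31, 2.75 and 3.36 in hIAPP and 3.37, 4.44 and 6.32 in rIAPP. It fell with hIAPP by a log2 of -0.61 ± 0.14 (adjusted p = 0.00525), did not pass with rIAPP (0.14 ± 0.14, adjusted p = 0.515), and was lower in hIAPP than in rIAPP (-0.74 ± 0.14, adjusted p = 3.52e-04). All 6 hIAPP libraries lay below all 6 WT and all 6 rIAPP libraries, where 6.84% of all tested genes had every hIAPP library below every rIAPP library. None of the 35 genes had every hIAPP library above every rIAPP library (6.53% of all tested genes).

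Most enzymes kept nearly fixed proportions over the 18 libraries. The summed level of 8 abundant members (Cpa1, Cpb1, Cela2a, Cela3b, Ctrb1, Pnlip, Cel and Clps, the core enzymes below) ran from 588 to 2422 CPM in WT, from 1551 to 10258 in hIAPP and from 2607 to 11324 in rIAPP. Divided by that sum, or by the sum of the other 7 for a gene of the 8, the level of 26 of the 35 genes spanned 1.20-fold to 2.38-fold over the libraries, while their CPM spanned 15.3-fold to 30.1-fold. Prss2 gave 110.3 CPM per 1000 CPM of core level at the WT median, 103 in hIAPP and 107 in rIAPP. The limit of 2.5-fold that sets the 26 was chosen after the values were seen, and all CPM share the library scaling. The other 9 were Prss1, Prss3, Cela3a, Amy1 and the 5 transcription factors. Bhlha15 went from 13.1 CPM per 1000 CPM of core level at the WT median to 4.72 in hIAPP and 3.22 in rIAPP, since its own CPM spanned only 2.21-fold. Nr5a2 (2.74-fold), Gata4 (3.22-fold) and Amy1 (5.34-fold) likewise spanned little in CPM.

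**Figure D4:**
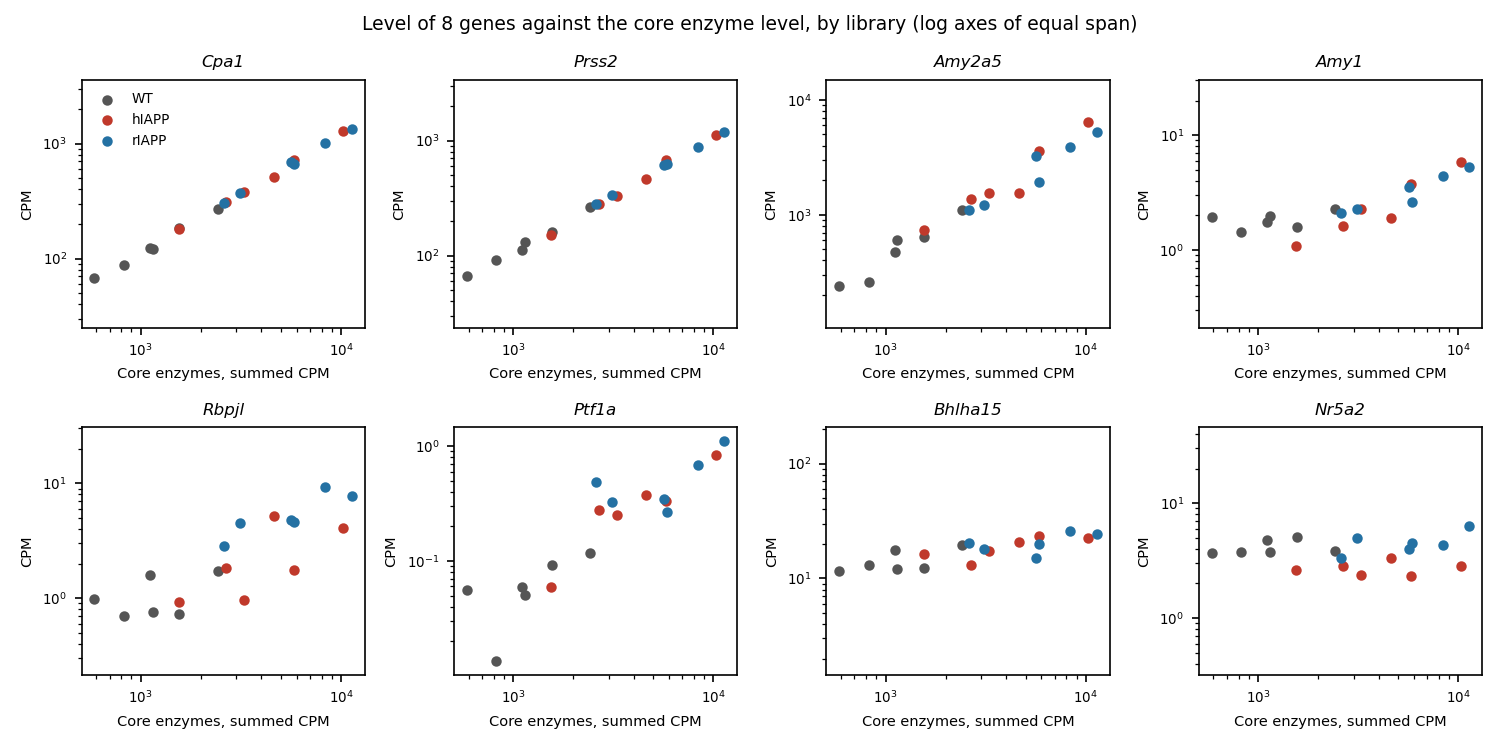
CPM of 8 genes (vertical, log axis) against the summed CPM of the 8 core enzymes (horizontal, log axis), 1 point per library, coloured by genotype; Cpa1 is itself 1 of the 8. Cpa1 and Prss2 rise in step with the core level in every genotype, Bhlha15 stays between 11.6 and 25.6 CPM, and the hIAPP points of Nr5a2 lie between 2.31 and 3.36 CPM, under the others.

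With the log2 core level as a covariate in the edgeR fit, most differences between genotypes no longer passed. Of the 27 members outside the core, 1 was called in hIAPP against WT (3.81% of all genes tested were called), and that was Nr5a2, lower by a log2 of -0.81 ± 0.18 (adjusted p = 0.0163). None was called in rIAPP against WT by edgeR (10.6% of all genes), and 2 were higher and 0 lower at an unadjusted p under 0.05. No other tool was run with the covariate. In hIAPP against rIAPP 4 were called (27.0% of all genes). Nr5a2 (-0.68 ± 0.14, adjusted p = 9.30e-04), Rbpjl (-0.95 ± 0.31, adjusted p = 0.0268) and Rnase1 (-0.25 ± 0.08, adjusted p = 0.0195) were lower in hIAPP, and Cuzd1 (0.41 ± 0.14, adjusted p = 0.0384) was higher. The median over the 27 genes was -0.05, -0.03 and -0.03 in the 3 comparisons. The core level itself differed between genotypes, so this fit compares libraries at equal core level, and genotype and acinar content cannot be told apart.

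Other acinar genes, listed with earlier results of these data known, also rose in most cases. Of 29 in the table, 26 were tested: 17 rose and 1 fell with hIAPP, and 16 rose and 1 fell with rIAPP, with medians of 1.63 and 2.12. Of all tested genes, 8.31% rose and 7.53% fell with hIAPP, and 14.1% rose and 12.6% fell with rIAPP. Gatm, which makes the creatine precursor guanidinoacetate, was at 60.8 ± 12.2 against 23.7 ± 4.06 CPM with hIAPP against WT (SD, n = 6), and rose by 1.36 ± 0.14 (adjusted p = 2.02e-06) with hIAPP and by 1.49 ± 0.14 (adjusted p = 8.68e-08) with rIAPP. Nupr1, a stress-induced chromatin protein that many cell types make, was at 143 ± 94.8 against 14.4 ± 4.47 CPM, and rose by 3.31 ± 0.35 (adjusted p = 3.08e-06) and 2.57 ± 0.34 (adjusted p = 8.69e-06). Cckar, the cholecystokinin receptor that triggers enzyme release, rose by 1.94 ± 0.43 (adjusted p = 0.00422) and 2.51 ± 0.43 (adjusted p = 1.69e-04). With hIAPP, Aqp12, an acinar aquaporin, rose by 2.09 ± 0.45 (adjusted p = 0.00378), and Erp27, a protein of the endoplasmic reticulum, by 1.86 ± 0.41 (adjusted p = 0.00429). Amy2a4, a near copy of Amy2a5, rose by 1.93 ± 0.43 (adjusted p = 0.00464). Its mean over the 18 libraries was 3941 CPM, the highest of this list, and it is not counted in the amylase shares above. With rIAPP, Tmed6 rose by 1.34 ± 0.17 (adjusted p = 3.90e-06) and the granule GTPase gene Rab3d by 0.32 ± 0.05 (adjusted p = 1.12e-04). The muscarinic receptor gene Chrm3, which beta cells also express, fell with rIAPP by a log2 of -0.92 ± 0.12 (adjusted p = 7.05e-06). Rab27b fell with hIAPP by a log2 of -0.61 ± 0.14 (adjusted p = 0.00586). Between the transgenic groups Chrm3 was higher in hIAPP (0.76 ± 0.12, adjusted p = 6.42e-05), and Rab27b (-0.71 ± 0.14, adjusted p = 6.47e-04) and Tmed6 (-0.68 ± 0.17, adjusted p = 0.0039) were lower.

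Some markers of other cell types also differed between the groups, and their part in the acinar result was not tested. Their counts stand against 8.31% of all tested genes that rose and 7.53% that fell with hIAPP, and 14.1% and 12.6% with rIAPP. Summed hormone levels were 116480 to 144130 CPM in WT, 63546 to 118610 in hIAPP and 60961 to 91862 in rIAPP. The hIAPP libraries with most acinar RNA, 5 and 6, had the lowest hormone sums of their genotype, 63546 and 80333 CPM. In the same way rIAPP 1 and 2, at 60961 and 71910 CPM, had the lowest hormone sums of theirs. The WT libraries did not follow this order. WT 4, with most acinar RNA in WT, was at 127150 CPM, and WT 5, with least, had the lowest WT sum, 116480 CPM. Of the 5 hormone genes, Ins2 fell with hIAPP by a log2 of -0.45 ± 0.14 (adjusted p = 0.032), and Ins1 (-1.21 ± 0.18, adjusted p = 2.93e-05) and Ins2 (-0.87 ± 0.14, adjusted p = 6.77e-05) fell with rIAPP. Mesenchymal markers, led by Col3a1, summed to 836 to 1195 CPM in WT, 1146 to 2112 in hIAPP and 1473 to 2385 in rIAPP, and 9 of 12 rose in each comparison with WT. Ductal markers, led by Krt7, summed to 556 to 665, 516 to 638 and 649.9 to 764 CPM. Of those 12, 1 rose and 6 fell with hIAPP, and 4 rose and 2 fell with rIAPP.

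Endothelial markers, led by Kdr, summed to 735 to 831 CPM in WT, 657 to 757 in hIAPP and 914 to 1024 in rIAPP. Of 12, 3 fell with hIAPP and 12 rose with rIAPP. Macrophage markers, led by Lyz2, summed to 110.2 to 126 CPM in WT, 316 to 617 in hIAPP and 73.7 to 89.4 in rIAPP. Of 13, 11 rose with hIAPP, and 1 rose and 6 fell with rIAPP. Cd79a, a B cell gene and the lymphocyte marker of highest level, was at 15.7 ± 1.5 CPM in WT, 13.4 ± 6.77 in hIAPP and 5.30 ± 1.38 in rIAPP (SD, n = 6). It fell with rIAPP by a log2 of -1.57 ± 0.27 (adjusted p = 1.41e-04), did not pass with hIAPP (-0.23 ± 0.26, adjusted p = 0.628), and was higher in hIAPP than in rIAPP (1.34 ± 0.27, adjusted p = 7.02e-04). The T cell receptor complex genes Cd3e and Cd3g were each at 0 in at least 1 library. Erythroid markers summed to 38.4 to 76.8 CPM in WT, 22.5 to 45.0 in hIAPP and 18.6 to 39.3 in rIAPP, and 3 of 5 tested fell with each transgene. Schwann cell markers summed to 24.1 to 31.6, 29.1 to 42.0 and 30.5 to 35.9 CPM, and 3 of 6 rose with hIAPP and 2 with rIAPP. Of the 6 adipocyte markers, Adipoq, Plin1, Cfd, Retn, Lep and Cidec, each was at 0 in at least 1 library and none passed the count filter, with sums of 0.00761 to 0.0908 CPM.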

How the data were processed

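The authors deposited 1 table of estimated counts per gene for the 18 libraries. STAR, HTSeq and the builds GRCm38 and mm10 appear in the submitters' processing notes. For strandedness, the annotation and the step behind the fractional counts, the sources used here give nothing. Of the non-zero deposited counts, 39.2% were not whole, and they were rounded for testing. Columns were matched to genotypes by sample title. Each library came from 1 mouse. Within-genotype pairs (45) differed beyond sampling noise, with a chi-square per degree of freedom of 28.1 to 270.8.

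edgeR 4.0.16 in R 4.3.3 was used with TMM scaling, filterByExpr and a quasi-likelihood fit over all 18 libraries with 1 mean per genotype. The 3 comparisons were adjusted by Benjamini-Hochberg over 20244 genes, and calls were made at an adjusted p under 0.05. CPM values are deposited counts divided by TMM-scaled totals. The test was checked on simulated data. Genes were drawn independently there, so the check does not cover genes that move together. The members and all gene lists were chosen with earlier results of these data known. Named in full were up to 3 members of highest mean per role class, the 5 transcription factors, members that departed from their class, and the called genes with the 6 smallest p of the further acinar list. Gene positions, exon lengths and shared 50-base windows came from GENCODE M21 (GRCm38), and promoters from RefSeq (GRCm38.p6). Alternatives covered scaling, filters, DESeq2 1.42.0, limma-voom (limma 3.58.1), the samples in the fit, a core enzyme covariate, thresholds and left-out libraries. PCR reads without molecular identifiers are not independent molecules. Depth, in units of 1e6 counts, was 109.6 to 166.2 per library.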

Additional observations from a re-analysis of the deposited data

Results flagged for a closer look

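In WT, library 4 stood apart from the other 5 libraries for 5 genes, with a gap to the nearest library that exceeded Dixon's 95% limit. Try4 was at 7.46 CPM in WT 4 against 1.33 to 3.05 in the others. Try5 was at 179 CPM against 42.1 to 93.5. Try10 was at 8.87 CPM against 1.88 to 3.74. Spink1 was at 2.14 CPM against 0.536 to 1.03, and Gp2 was at 48.5 CPM against 7.12 to 21.3. Of 108 groups examined 5 were flagged, and chance flags about 1 in 20. WT 4 also had the highest summed share of the 35 genes in WT, 0.485%, and the mean WT share without it was 0.2%.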

How the results depend on the processing

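The count of genes called stayed within 1.5 times of the reported count under library totals, RLE or upper quartile scaling, either count filter, DESeq2, limma-voom, a robust fit, fits of 2 genotypes and a 2-fold minimum. DESeq2 called 30, 33 and 3 of the 35 (hIAPP against WT, rIAPP against WT, hIAPP against rIAPP), and limma-voom 24, 33 and 4. Over all genes DESeq2 called 3825 of 21009, 5916 of 23918 and 6115 of 23918. With limma-voom those counts were 3940, 6838 and 6762 of 20244. Leaving out each library in turn gave 27 to 30, 30 to 33 and 1 to 3. Those fits called 2377 to 3919, 4711 to 5612 and 4865 to 5876 of the 20405 to 20478 genes tested. At an adjusted p under 0.01 the third count was 1, where 3617 of 20244 genes were called. Without hIAPP 5 and 6 the first was 5 and the third 7, and without rIAPP 1 and 2 (chosen after the values were seen) the third was 1. With the core covariate the first was 1 and the second 0. After removal of the 10 most abundant genes the share was 0.448% in WT, 1.73% in hIAPP and 2.22% in rIAPP, and without hIAPP 5 and 6 the hIAPP share was 0.62%; leaving out each library in turn, it ran from 0.2% to 0.274% in WT, 0.79% to 1.21% in hIAPP and 1.1% to 1.45% in rIAPP.

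Signs of log2 fold changes turned mostly with the core covariate, which by construction removes what a gene shares with the 8 enzymes. In hIAPP against WT it gave -0.48 for Prss1, -0.075 for Prss2, -0.066 for Prss3, -0.34 for Try4, -0.28 for Try5, -0.19 for Try10, -0.018 for Ctrc and -0.043 for Ctrl. It gave -0.94 for Cela3a, -0.72 for Amy1, -0.053 for Rnase1, -0.013 for Sycn, -0.11 for Gp2, -0.079 for Rbpjl, -0.046 for Bhlha15 and -0.070 for Gata4. In rIAPP against WT it gave -0.13 for Prss1, -0.055 for Prss2, -1.22 for Prss3, -0.31 for Try4, -0.35 for Try5, -0.35 for Try10, -0.066 for Ctrc and -0.009 for Ctrl. It gave -0.61 for Amy1, -0.22 for Amy2a5, -0.069 for Spink1, -0.005 for Sycn, -0.36 for Gp2, -0.16 for Cuzd1, -0.029 for Bhlha15 and -0.13 for Nr5a2. In hIAPP against rIAPP it gave 0.071 for Try5, 0.16 for Try10, 0.049 for Ctrc, 0.25 for Amy2a5, 0.082 for Spink1 and 0.25 for Gp2. Cuzd1, hIAPP against rIAPP, was -0.43 with limma-voom and -0.85 without hIAPP 5 and 6, and Amy1, hIAPP against WT, was -0.074 without them; the cause was not tested. Leaving out 1 library in turn, hIAPP against rIAPP ran from -0.58 to 0.062 for Try10, -0.66 to 0.16 for Amy2a5, -0.59 to 0.19 for Gp2, -0.29 to 0.36 for Cuzd1 and -0.67 to 0.006 for Ctrb1. No paired analysis was possible because replicate numbers were given in accession order and each library came from its own mouse. Prss1, Prss3, Cela3a and Ptf1a held few counts per library, so their values carry more counting error.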
